A study of Oryza sativa Japonica Group with 6 samples.

Results

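The ascorbate peroxidase family of rice was examined in developing seeds of Oryza sativa Japonica Group after an additional supply of ammonium chloride. The members were the genes named APX1 to APX8, found by symbol or synonym in GEO's annotation of the array and in RefSeq's gene list. Of these 8 genes 7 had a probe set that named exactly 1 gene, out of 17905 genes so measured, with 10 probe sets among the 57194 rice probe sets of the array. APX2 had 4 probe sets and the other 6 genes had 1 each. APX3 had no probe set that named it here, so it was not analysed here. Where a gene had several probe sets, the leading one was chosen by its mean level over the 6 arrays, the highest one being taken. That choice used the level over all arrays and not the difference between the groups. The family was taken up with an earlier result for APX1 known, so its difference is a description of these arrays more than an independent test.

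Ascorbate peroxidases are haem enzymes that reduce hydrogen peroxide to water with ascorbate as the electron donor. The oxidized ascorbate is regenerated by monodehydroascorbate and dehydroascorbate reductases, the second with glutathione, which glutathione reductase in turn restores. In rice the family is divided by location into cytosolic (APX1 and APX2), peroxisomal (APX3 and APX4) and organellar members (APX5 to APX8), APX7 being placed in the chloroplast stroma and APX8 on the thylakoid. Catalases remove hydrogen peroxide without ascorbate, chiefly in peroxisomes.

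The additional NH4Cl group had 3 arrays, from plants given 400 mg of ammonium chloride per container when they headed, with seeds labelled 15 DAF (days after flowering). The control group had 3 arrays from plants without that supply, and no seed age is given for it in the sources used here. Fertilizer was given to all plants when they were planted and once more 37 days after germination, the seeds came from 6 plants, and no further genotype or strain is given. The arrays are labelled as biological replicates, but no label ties an array to a plant, so the p-values here measure only the spread between these samples, which may be technical. The comparison addresses how the extra fertilizer alters transcript levels in the seed.

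Each deposited value was read as a log2-scale level of 1 probe set on 1 array, between 4.96 and 13.51, on arrays with medians between 5.71845 and 5.71860. The values hardly differ between arrays: over the 6 arrays, the SDs of rice probe sets had a median of 2.25e-06. A difference in these units is therefore not a fold change of RNA. Each difference below is stated in those log2-scale units, and also as a multiple of the SD within groups of its own probe set, called within-group SDs. Seed identity was checked with marker genes. All 4 endosperm markers and all 6 aleurone and embryo markers had means above 6.07, the highest mean among 64 reporter control probe sets. Of 4 green tissue markers 3 lay above it. The extraction label speaks of seedlings while the tissue label says developing seed, and the endosperm markers had means between 12.64 and 13.21.

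No ascorbate peroxidase gene passed the threshold of an adjusted p under 0.05 in limma (Benjamini-Hochberg over all rice probe sets, two-sided), where 0.00699% of rice probe sets did and 0 of those were higher with additional NH4Cl. APX1 stood furthest from 0 among the leading probe sets, with the additional NH4Cl arrays all above the control arrays. The other 6 genes had leading probe sets whose groups overlapped. At an unadjusted p under 0.05 only APX1 of the 7 leading probe sets was counted, on the higher side, against 5.09% of all rice probe sets on that side. The leading probe sets had a difference above 0 in 5 of 7 genes, beside 50.4% of all rice probe sets. After quantile normalization 2 of 7 were above 0 and APX2 was at 0. Of all rice probe sets 39.7% were then above 0 and 38.3% below, with the rest at 0. After median centring 7 of 7 were above 0, beside 95.6%. On the deposited values without control replicate 3 the count above 0 was 3 of 7. The median difference of the 7 was 0.303 within-group SDs, beside 0.0101 for all rice probe sets.

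**Figure D1:**
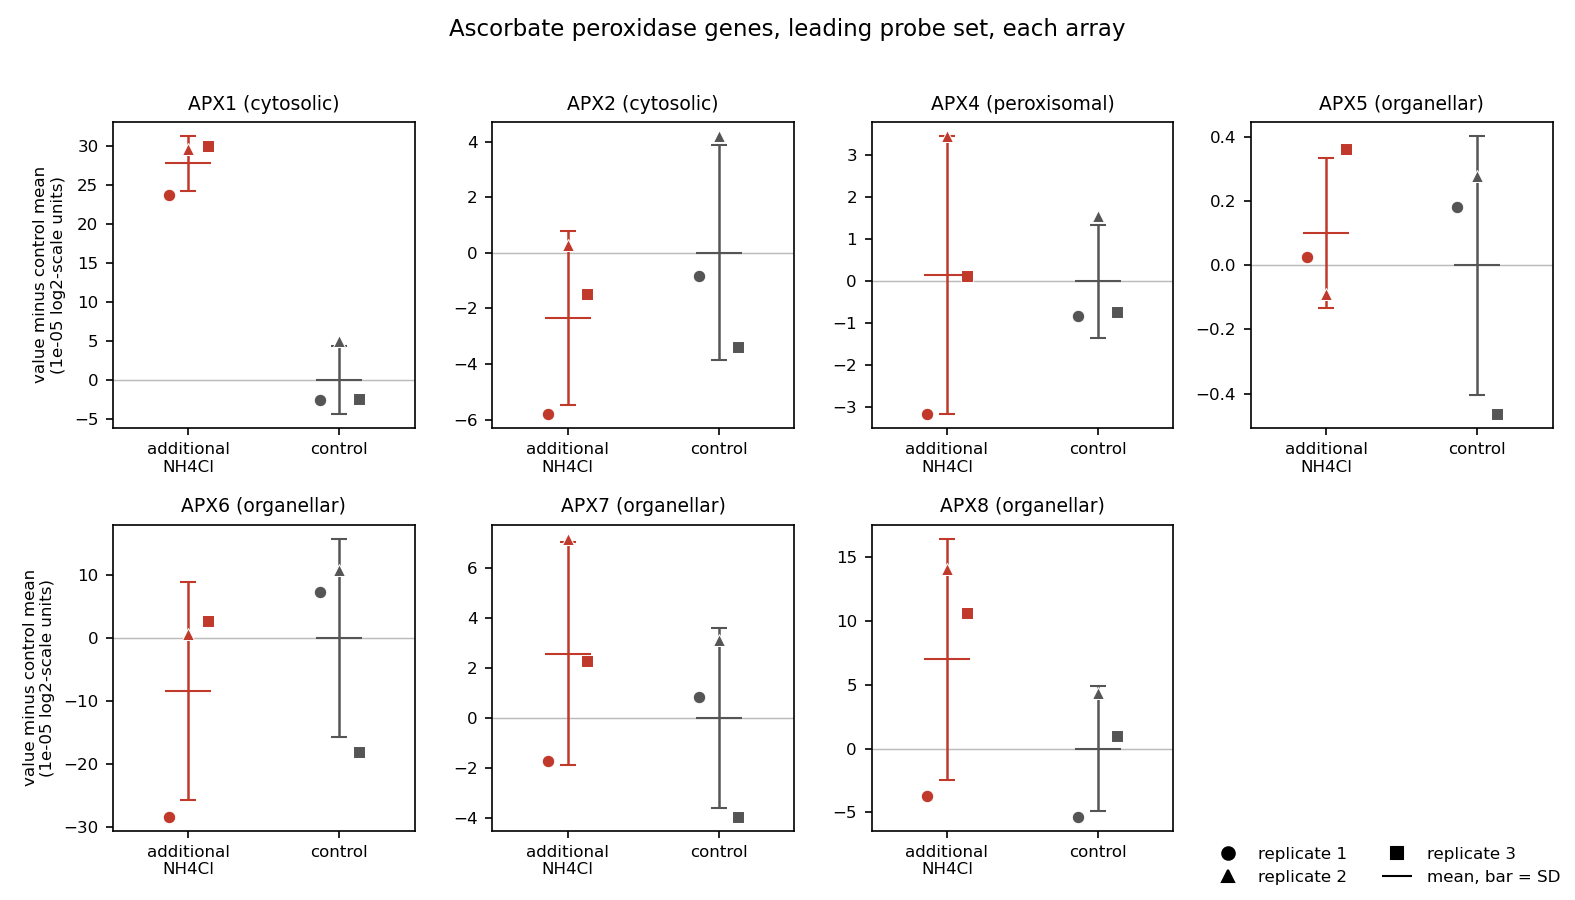
Each panel shows the leading probe set of 1 ascorbate peroxidase gene, with the deposited log2-scale value minus the control mean (in units of 1e-05) on the vertical axis; points are single arrays, the horizontal mark is the group mean and the bar the SD (n = 3 each). The additional NH4Cl arrays of APX1 lie apart from its control arrays, the groups overlap in the other 6 panels, and the vertical scale differs between panels.

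APX1 is a cytosolic ascorbate peroxidase. Its single probe set read 7.75665, 7.75671 and 7.75672 in the additional NH4Cl arrays, against 7.75639, 7.75647 and 7.75639 in the control arrays, in deposited log2-scale units. Every additional NH4Cl array was higher than every control array, and the gap between the groups was wider than the spread within either. Rice probe sets whose groups did not overlap with additional NH4Cl on the higher side made up 8.42% of the array. The mean was 7.756696 ± 3.54e-05 for the additional NH4Cl arrays and 7.756418 ± 4.36e-05 for the control arrays (SD, n = 3 each). The difference was 0.000278 (SE 3.24e-05, 95% interval of 0.000196 to 0.00036), or 6.99 within-group SDs. Its limma adjusted p was 0.128. A difference as many SDs above 0 was found for 0.17% of rice probe sets, and a difference at least as far from 0 in deposited units for 5.76%.

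The direction of APX1 was the same in each alternative run, with differences between 0.000265 and 0.000557. The limma adjusted p for APX1 ran from 0.00759 after median centring, a setting that called 89.8% of rice probe sets, to 0.374 without control replicate 1. Of the 4 green tissue markers 3 had means above the highest reporter control mean of 6.07, and the lowest had a mean of 5.17. All 4 were also higher on average with additional NH4Cl, beside 50.4% of all rice probe sets. Their summed log2-scale levels were 34.19487 to 34.19869 in the additional NH4Cl arrays and 34.19300 to 34.19672 in the control arrays, ranges that overlap. Of the aleurone and embryo markers 4 were higher and 2 lower, and of the endosperm markers 2 were higher and 2 lower. The part of these markers in the APX1 difference was not tested. In whole seeds, a change in the share of cells of a type and a change in RNA per cell cannot be told apart.

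APX2 is the other cytosolic member. Its leading probe set, Os.12693.1.S1_a_at, read 11.25493, 11.25499 and 11.25497 with additional NH4Cl, against 11.25498, 11.25503 and 11.25495 in control. The groups overlapped, since the lowest control array lay below the highest additional NH4Cl arrays. The difference was -2.34e-05 (SE 2.87e-05, 95% interval of -9.61e-05 to 4.94e-05), or -0.664 within-group SDs, with a limma adjusted p of 0.871. It was positive after median centring (9.92e-05) and 0 after quantile normalization. This probe set and Os.12693.5.S1_x_at are of types that can hybridize with several transcripts, so their source is uncertain.

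The probe sets of APX2 did not give 1 picture. Os.12693.5.S1_x_at followed the leading probe set over the 6 arrays (Pearson r of 0.954) and read 10.35375, 10.35382 and 10.35379 with additional NH4Cl, against 10.35378, 10.35385 and 10.35379 in control. Os.12693.3.S1_at, whose type carries no such mark, read 6.45982, 6.45987 and 6.45975 with additional NH4Cl, against 6.46035, 6.46061 and 6.46016 in control. Here every additional NH4Cl array lay below every control array. Rice probe sets without overlap on the lower side made up 8.99% of the array. The difference of Os.12693.3.S1_at was -0.000559 (SE 0.000135), or -3.37 within-group SDs, at an unadjusted p of 0.00953 and a limma adjusted p of 0.264. On the lower side 5.96% of rice probe sets had an unadjusted p under 0.05. The difference kept its sign after quantile normalization (-0.000789) and median centring (-0.000436).

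Os.12693.1.S2_at, the APX2 probe set with the lowest mean (5.68), lay below the highest reporter control mean of 6.07. It read 5.677775, 5.677773 and 5.677777 with additional NH4Cl, against 5.677776, 5.677774 and 5.677776 in control, and its groups overlapped. Its difference was -2.88e-07, or -0.189 within-group SDs, and it was positive after median centring (0.000122) and 0 after quantile normalization.

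**Figure D2:**
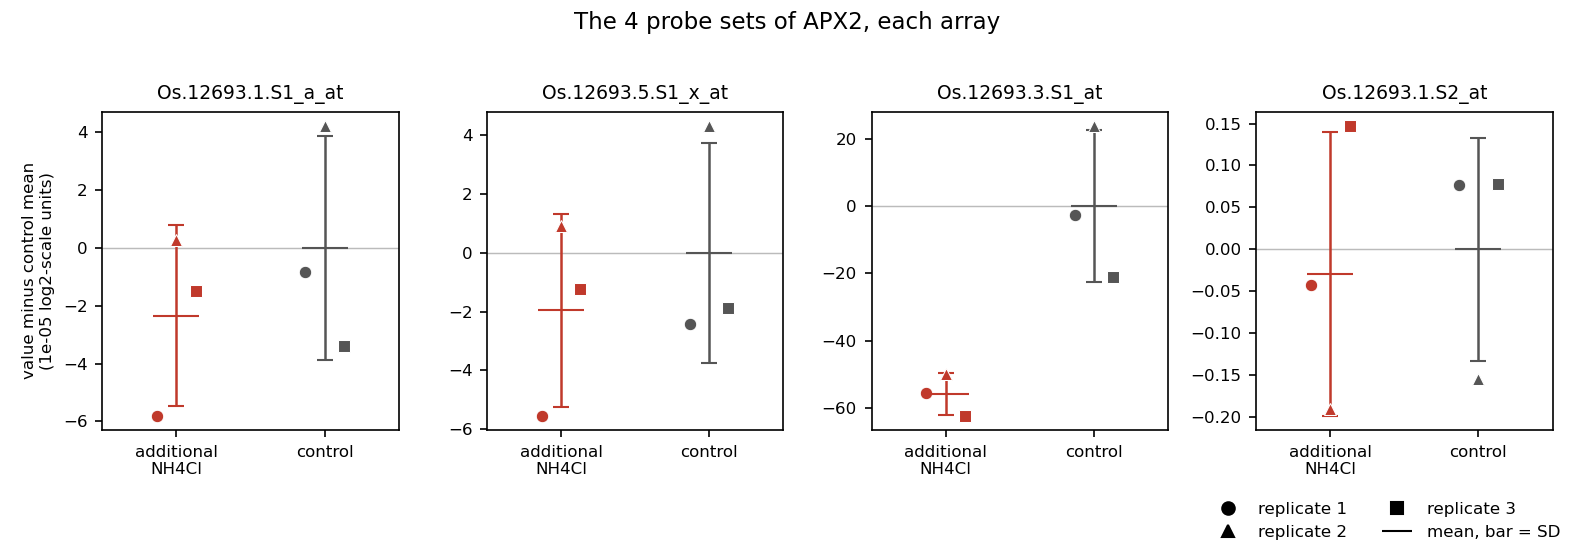
The 4 probe sets of APX2 are shown by array, from the highest to the lowest mean, as the deposited log2-scale value minus the control mean (in units of 1e-05); points are single arrays, marks are means and bars SDs (n = 3 each). Only in the panel of Os.12693.3.S1_at do the additional NH4Cl arrays lie apart from the control arrays, at a difference of -0.000559.

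The cytosolic members were set against each other as the gap between their leading probe sets, APX1 minus APX2, on each array. This comparison was added after the values were seen. The gap was -3.498271, -3.498273 and -3.498251 with additional NH4Cl, against -3.498584, -3.498558 and -3.498557 in control. The gap was less negative in every additional NH4Cl array than in any control array. Its difference was 0.000301, with a within-group SD of 1.38e-05, smaller than the SD of either gene alone (3.97e-05 for APX1 and 3.52e-05 for APX2). An exact two-sided permutation over the 20 assignments of arrays to groups gave a p of 0.1, which 3 against 3 arrays cannot go below. The gap was chosen with the separation of APX1 known, so that p does not count as support for it. Its difference lay between 0.000293 and 0.000306 when each array was left out and was 0.000557 after quantile normalization, where APX2 had no difference left; median centring cannot alter a gap within an array.

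APX4 was the peroxisomal member with a probe set. It read 7.97840, 7.97847 and 7.97844 with additional NH4Cl, against 7.97843, 7.97845 and 7.97843 in control. The additional NH4Cl arrays spanned all 3 control arrays. The difference was 1.48e-06 (SE 2.06e-05, 95% interval of -5.07e-05 to 5.37e-05), or 0.0585 within-group SDs, the smallest of the 7 leading probe sets on that scale, with a limma adjusted p of 0.998. Its sign turned when additional NH4Cl replicate 2, control replicate 1 or control replicate 3 was left out (-1.51e-05, -2.68e-06 and -2.15e-06).

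**Figure D3:**
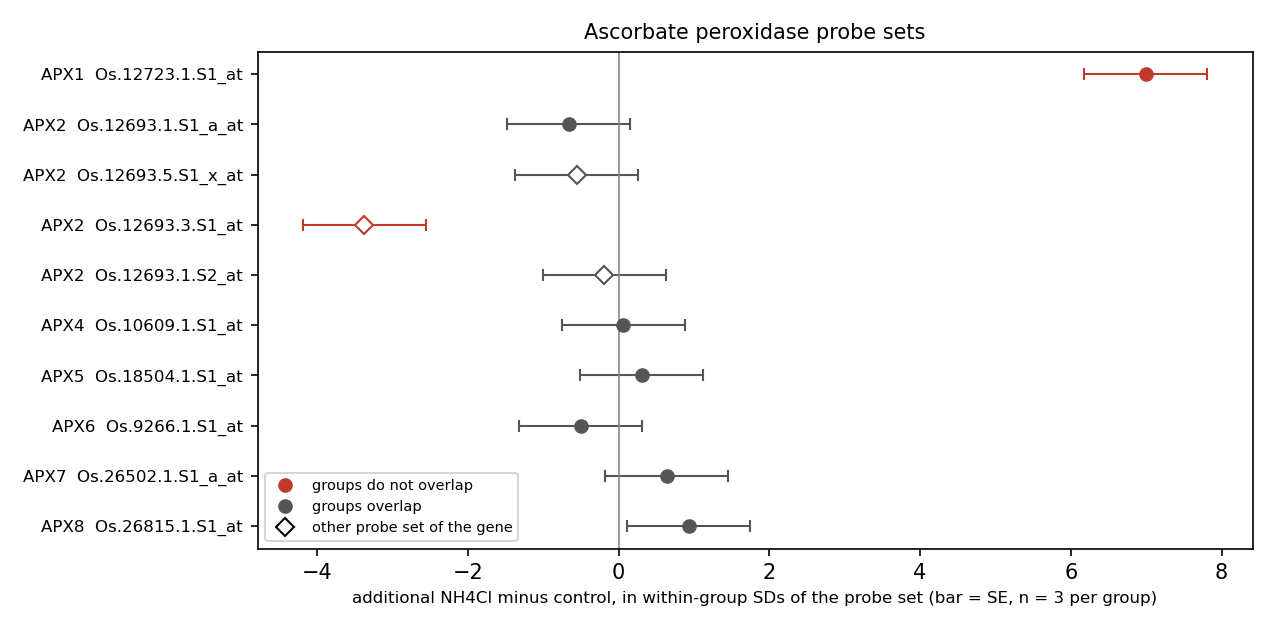
For each of the 10 ascorbate peroxidase probe sets the horizontal axis gives the difference, additional NH4Cl minus control, in within-group SDs of that probe set, with the SE as a bar (n = 3 per group); filled circles are leading probe sets and open diamonds other probe sets of the same gene. APX1 stands at 6.99 and Os.12693.3.S1_at of APX2 at -3.37, both with groups that do not overlap, while the other 8 lie between -0.664 and 0.928; the differences of APX5, APX7 and APX8 were negative after quantile normalization.

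The organellar members had the same overlap of groups. APX8, on the thylakoid, read 7.14457, 7.14475 and 7.14472 with additional NH4Cl, against 7.14456, 7.14465 and 7.14462 in control. Both groups had their lowest value in replicate 1. The difference was 7e-05 (SE 6.16e-05, 95% interval of -8.59e-05 to 0.000226), or 0.928 within-group SDs, with a limma adjusted p of 0.783, and it was negative after quantile normalization (-0.000159).

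APX7, of the stroma, read 6.95739, 6.95748 and 6.95743 with additional NH4Cl, against 6.95741, 6.95744 and 6.95737 in control, on a probe set that can hybridize with several transcripts. The difference was 2.59e-05 (SE 3.31e-05), or 0.638 within-group SDs, with a limma adjusted p of 0.877, and it was negative after quantile normalization (-0.000182). In both chloroplast members, and also in the peroxisomal APX4, the highest value of all 6 arrays came from additional NH4Cl replicate 2.

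APX5 and APX6 are neighbours on chromosome 12 in RefSeq's gene list, with no listed gene between them. APX6 read 7.42881, 7.42910 and 7.42912 with additional NH4Cl, against 7.42917, 7.42920 and 7.42892 in control. One array in each group lay well below the other pair, additional NH4Cl replicate 1 and control replicate 3, and the groups overlapped. The difference of APX6 was -8.36e-05 (SE 0.000135), or -0.505 within-group SDs, with a limma adjusted p of 0.918. It was positive after median centring (3.89e-05) and without additional NH4Cl replicate 1 (1.62e-05).

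APX5 had the lowest level of the leading probe sets, at a mean of 6.20, close to the highest reporter control mean of 6.07. It read 6.197711, 6.197710 and 6.197714 with additional NH4Cl, against 6.197713, 6.197714 and 6.197706 in control. The control arrays spanned nearly the whole range of the additional NH4Cl arrays. The difference was 1e-06 (SE 2.7e-06), or 0.303 within-group SDs, with a limma adjusted p of 0.966. After quantile normalization APX5 was the 1 member that passed, in a fit that called 7.13% of rice probe sets. Its difference there was -0.000205, with a limma adjusted p of 0.00355. Quantile normalization sets values by rank, which can leave almost no spread within a group, so that p does not measure the size of a change. Without control replicate 3 the difference of APX5 on the deposited values was -1.32e-06.

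As deposited, the members had a like order of arrays within the groups, part of which depended on how the arrays were centred. Additional NH4Cl replicate 1 was the lowest of its group for 6 of 7 leading probe sets as deposited, the exception being APX5. The share of all rice probe sets as deposited was 35.4%. After median centring that array was the lowest for 6 of 7, and no share of all rice probe sets was taken there. Control replicate 2 was the highest control array for all 7 as deposited, beside 33.3% of all rice probe sets, but for 1 of 7 after median centring. Deviations from the group means correlated above 0 in all 21 pairs of leading probe sets as deposited, with a median Pearson r of 0.754 over 6 arrays and a range of 0.0188 for APX5 with APX8 to 0.939 for APX1 with APX2. After median centring 19 of 21 pairs were above 0, with a median of 0.702 and a range of -0.623 for APX5 with APX6 to 0.957 for APX2 with APX8. The r of APX1 with APX2 was 0.952 there, while that of APX2 with APX6 was 0.341, beside 0.869 as deposited. For comparison, 49.4% of rice probe sets had deviations that correlated above 0 with those of APX2 as deposited, and 2.09% had an r of 0.9 or more. No such share was taken after centring. The array medians, from 5.71845 to 5.71860, differ by far more than the median SD of rice probe sets (2.25e-06). Centring therefore gives many probe sets a shared order of arrays, so the counts and correlations after it are not particular to these genes. These correlations describe 6 arrays that all probe sets share, and array-wide effects may enter each of them, which was not tested.

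Over the 6 arrays without removal of the group means, APX1 and APX2 had a Pearson r of -0.169. For APX1 the groups form separate clusters, so a high r with it over 6 arrays mainly marks genes whose groups are apart in the same way. Among 2521 probe sets with a gene name and a mean at or above the median level, the highest r with APX1 belonged to MS (0.989), AGL10, also named MADS14 (0.984, on an uncertain probe set), and CAM, a calmodulin gene (0.979). MS had a difference of 0.000457 with a limma adjusted p of 0.134. The closest to APX2 were VTE1 (0.989), FDRMADS8, also named MADS56 (0.967), and CYCD6-1 (0.963). The closest to APX4 were SPL2 (0.985), DI19-2 (0.961) and ASL1 (0.956). The closest to APX8 were OsPSY1 (0.987), C6-oxidase (0.982) and ALDP (0.975), OsPSY1 and ALDP on uncertain probe sets. Each r is over 6 arrays and was the highest of many, so it describes likeness on these arrays only.

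The other enzymes of ascorbate and hydrogen peroxide were represented by 18 genes. None passed the threshold in limma. At an unadjusted p under 0.05, 1 was on the higher side and 3 were on the lower side, beside 5.09% and 5.96% of all rice probe sets. Of the 18 leading probe sets 7 had a difference above 0, beside 50.4% of all rice probe sets, and 11 had one below. Their median was -0.262 within-group SDs. After median centring, which adds 0.000123 to each difference, 16 of 18 were above 0, beside 95.6% of all rice probe sets. Groups did not overlap for 1 gene on the higher side and 3 on the lower side, beside 8.42% and 8.99% of all rice probe sets.

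Among the reductases that restore ascorbate, MDAR5 and MDAR2, both monodehydroascorbate reductases, had differences of -3.01e-06 (-1.66 within-group SDs) and -1.23e-05 (-1.02 SDs). Median centring made both positive, and quantile normalization made that of MDAR5 positive. RGRC2, a glutathione reductase, had a difference of 9.13e-05 (0.986 SDs). All 3 had groups that overlapped and limma adjusted p between 0.556 and 0.763.

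The GDP-mannose epimerases GME-1 and GME-2, of ascorbate synthesis, lay on opposite sides of 0. GME-2 read 6.89603, 6.89610 and 6.89606 with additional NH4Cl, against 6.89624, 6.89625 and 6.89620 in control. Every additional NH4Cl array of GME-2 was below every control array. Its difference was -0.000167 (SE 2.46e-05), or -5.55 within-group SDs, with a limma adjusted p of 0.157, and it was positive after quantile normalization (0.000171). GME-1 read 7.07243, 7.07247 and 7.07241 with additional NH4Cl, against 7.07230, 7.07230 and 7.07238 in control. Here every additional NH4Cl array was above every control array, with a difference of 0.000113 (SE 3.21e-05), or 2.88 SDs, and a limma adjusted p of 0.319.

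The catalases CAT-A and CAT-B had leading probe sets with differences of 0.00087 (1.1 within-group SDs) and 2.56e-05 (0.6 SDs), both with groups that overlapped and on uncertain probe sets. All 8 probe sets of these 2 genes had a difference above 0 as deposited, beside 50.4% of all rice probe sets. After quantile normalization 7 of 8 did, beside 39.7% above 0 and 38.3% below. Median centring adds 0.000123 to each difference, so it could not turn any of the 8 below 0. In 5 of the 8 the groups did not overlap, a count made after the values were seen, beside 8.42% of all rice probe sets on the higher side. The probe sets of a gene share its RNA and are not replicates. Among them Os.9172.2.S1_at of CAT-A read 6.24322, 6.26497 and 6.25060 with additional NH4Cl, against 6.22478, 6.23052 and 6.23525 in control, a difference of 0.0227 (SE 0.00707) with a limma adjusted p of 0.351. That probe set had a mean of 6.24, close to the highest reporter control mean of 6.07. Os.156.1.S1_at of CAT-B read 8.96179, 8.96160 and 8.96187 with additional NH4Cl, against 8.96145, 8.96128 and 8.96145 in control, a difference of 0.00036 (SE 9.82e-05) with a limma adjusted p of 0.302.

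**Figure D4:**
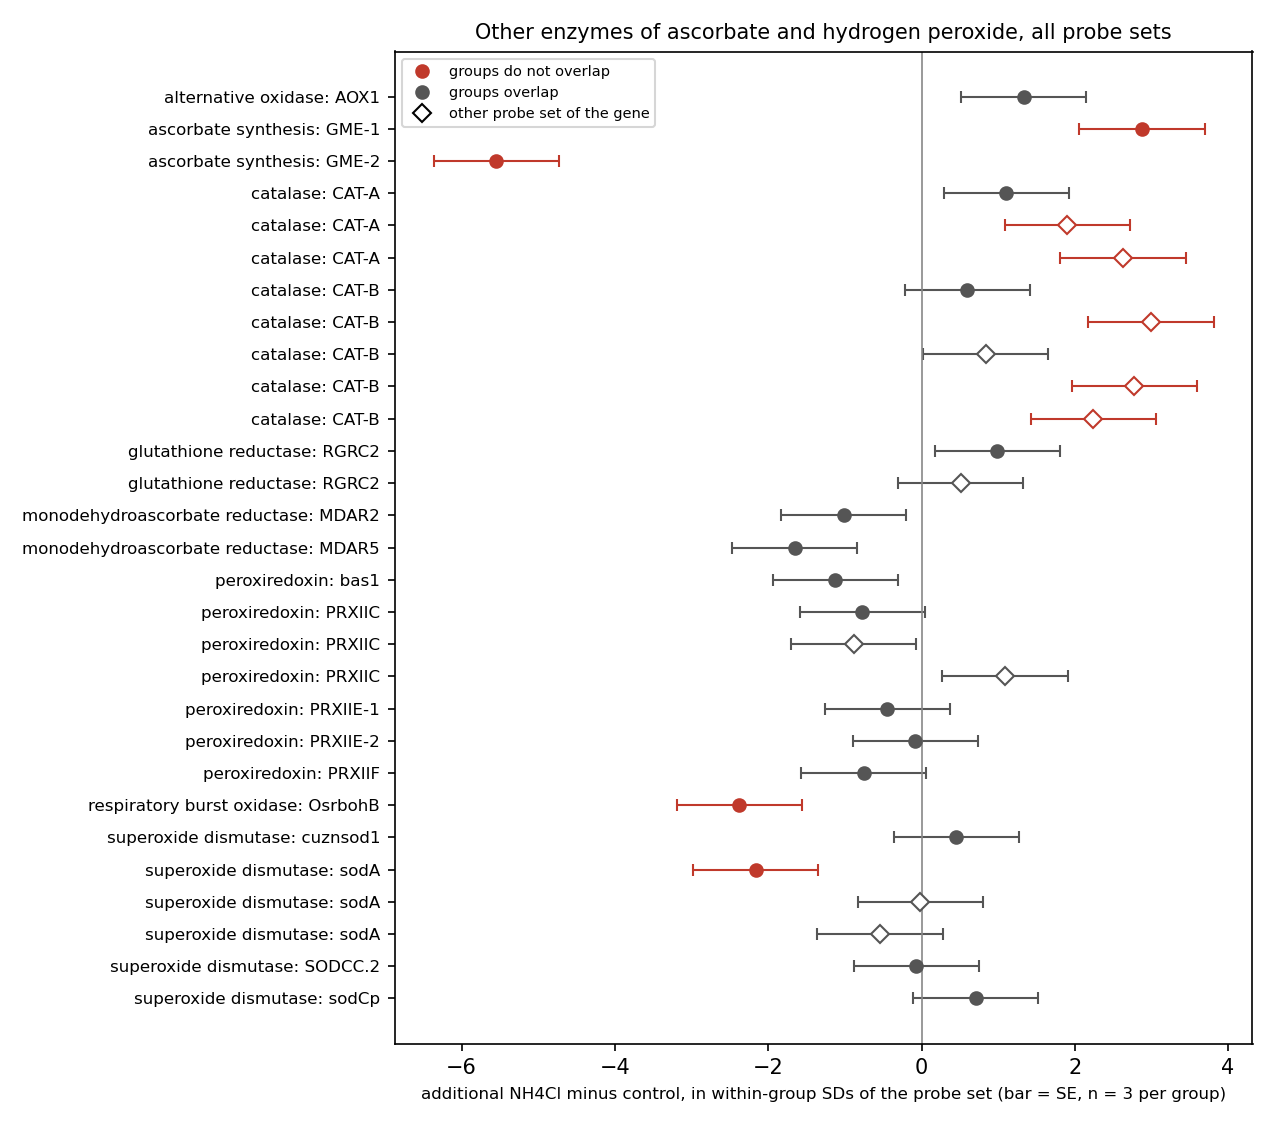
The 29 probe sets of 18 other genes for enzymes of ascorbate and hydrogen peroxide are shown with their difference, additional NH4Cl minus control, in within-group SDs (bar: SE, n = 3 per group); filled circles are leading probe sets and open diamonds other probe sets of the gene. GME-2 lies at -5.55, positive after quantile normalization, and GME-1 at 2.88, and the 8 catalase probe sets lie between 0.6 and 2.99. All 5 leading probe sets of peroxiredoxins lie below 0 as deposited, beside 49.6% of all rice probe sets. After median centring they lie above 0, beside 95.6%.

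All 5 peroxiredoxin genes, thiol-based peroxidases, had leading probe sets with a difference below 0 as deposited, beside 49.6% of all rice probe sets. Their groups all overlapped. All 5 were also below 0 after quantile normalization, beside 38.3%, and all 5 were above 0 after median centring, beside 95.6%. PRXIIC and PRXIIE-1, those with the highest means, stood at -4.2e-05 (-0.77 within-group SDs) and -1.72e-05 (-0.445 SDs), PRXIIC on an uncertain probe set. Among the enzymes that make hydrogen peroxide or its precursor, the superoxide dismutase sodA had a difference of -1.71e-05 (-2.16 SDs) and OsrbohB, an NADPH oxidase of the plasma membrane, one of -0.000371 (-2.37 SDs). In both, on uncertain probe sets, every additional NH4Cl array was below every control array, as in 8.99% of all rice probe sets. Their limma adjusted p were 0.432 and 0.393, and sodA was positive after median centring. The other probe sets of sodA, Os.4610.1.A1_s_at and Os.4610.1.A1_at, had overlapping groups (-0.0171 and -0.541 SDs). Os.4610.1.A1_at is not uncertain, and both had means (5.94 and 5.49) below the highest reporter control mean of 6.07. The copper/zinc superoxide dismutases cuznsod1 and SODCC.2 stood at 6.9e-06 (0.453 SDs) and -1.75e-06 (-0.0705 SDs), SODCC.2 being positive after median centring. After quantile normalization, which called 7.13% of rice probe sets, limma called cuznsod1 (-0.00206, adjusted p of 6.73e-13), SODCC.2 (-0.00273, 4.31e-13), PRXIIC (-0.000184, 1.04e-09) and the peroxiredoxin bas1 (-0.000772, 0.0423), none of which passed as deposited. Quantile normalization sets values by rank, which can leave almost no spread within a group. The p-values of that fit therefore do not measure the size of a change. The PRXIIC call was on that uncertain probe set. The probe sets of PRXIIC that are not uncertain are Os.2618.1.S1_at and Os.39012.1.S1_at. After quantile normalization their differences were 0.000149 and 7.03e-05, with limma adjusted p of 0.769 and 0.237. As deposited they were -4.1e-05 and 1.58e-07, the second at a mean of 5.8, below the highest reporter control mean of 6.07. AOX1, an alternative oxidase of mitochondria, had a difference of 0.00318 (1.33 SDs) with overlapping groups and a limma adjusted p of 0.647.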

How the data were processed

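Biotinylated cRNA was hybridised to Affymetrix rice arrays by the authors, per the labels' protocols. The values of the 57381 probe sets on 6 arrays were deposited by the authors on what was read as a log2 scale, from their range; how the authors summarized and normalized the scans is not stated in any source here. From these values, 187 control probe sets were left out. The 57194 rice probe sets were fitted in limma 3.58.1 (R 4.3.3) as additional NH4Cl minus control with lmFit and eBayes, without trend, robust fitting, block or filter, and adjusted by Benjamini-Hochberg at 0.05. Printed SEs are unmoderated and 95% intervals are limma's. The fit was tested on simulated data. Names came from GEO's platform annotation, updated through RefSeq's genes of ASM3414082v1; 22436 probe sets had 1 gene, 95 several and 34663 none listed. No coordinates are given because the build behind the array is not known, and no sequences were used here. Members and lists were chosen with earlier results of these data known. All members were named. Of the pathway, genes at an unadjusted p under 0.05 with a mean at or above 5.718 were named, otherwise up to 2 per enzyme class by mean, and for APX1, APX2, APX4 and APX8 the 3 most similar genes. Single catalase probe sets were named after their values were seen. Alternatives were a replicate block, trend and robust, quantile normalization, median centring, 2 filters, gene means and each array left out. The number of arrays limits the precision.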

Additional observations from a re-analysis of the deposited data

How the results depend on the processing

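Median centring adds 0.000123 to every difference by construction. It called 6 of the 7 leading ascorbate peroxidase probe sets and 9 of the 18 pathway genes, beside 89.8% of all rice probe sets. After it 16 of 18 were above 0, beside 95.6%. Quantile normalization called 1 of 7 and 4 of 18, beside 7.13% of all rice probe sets. It left 2 of 7 above 0, beside 39.7% above and 38.3% below 0. With each array left out, between 3 and 6 of the 7 were above 0, the 3 being without control replicate 3. Among the ascorbate peroxidase probe sets and the leading pathway probe sets, the differences that turned sign after median centring were those of APX2 (9.92e-05 for Os.12693.1.S1_a_at, 0.000103 for Os.12693.5.S1_x_at and 0.000122 for Os.12693.1.S2_at), APX6 (3.89e-05), sodA (0.000105), PRXIIC (8.06e-05), PRXIIE-1 (0.000105), PRXIIE-2 (0.000116), PRXIIF (9.98e-05), bas1 (2.88e-05), SODCC.2 (0.000121), MDAR5 (0.00012) and MDAR2 (0.00011). After quantile normalization they were APX5 (-0.000205), APX7 (-0.000182), APX8 (-0.000159), GME-2 (0.000171), cuznsod1 (-0.00206) and MDAR5 (0.000346); of the other catalase probe sets 1 also turned, Os.39055.1.A1_at of CAT-B (-0.000197). The gap between APX1 and APX2 had a difference of 0.000557 there, beside 0.000301 as deposited. With arrays left out, single differences were taken for the ascorbate peroxidase probe sets and most leading pathway probe sets. Those of PRXIIE-2, PRXIIF, bas1 and the superoxide dismutase sodCp were not taken. Among the ascorbate peroxidases, ranges went across 0 for APX4 (-1.51e-05 to 1.8e-05), APX5 (-1.32e-06 to 2.4e-06), APX6 (-0.000174 to 1.62e-05), and Os.12693.5.S1_x_at (-3.39e-05 to 1.9e-06) and Os.12693.1.S2_at (-1.17e-06 to 5.2e-07) of APX2. Among the pathway probe sets so examined, they did for cuznsod1 (-3.21e-06 to 1.43e-05), SODCC.2 (-1.13e-05 to 1.65e-05) and CAT-B (-4.71e-06 to 4.87e-05). Other causes were not tested. Over all rice probe sets, limma called 4 as deposited, 4079 after quantile normalization, 51354 after median centring, 32 with dim probe sets removed, and 2 each with a replicate block and with trend and robust.

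The replicate numbers are only shared names here: deviations of same-numbered arrays correlated at -0.0616, 0.0449 and -0.0775. With the replicate block 0 of 7 and 0 of 18 passed, as without it, and APX1 kept its difference of 0.000278 with a limma adjusted p of 0.35. Signal near that of the reporter controls limits APX5 and Os.12693.1.S2_at.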
